A study of Brassica rapa subsp. pekinensis with 10 samples.

Results

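The late cold risers of Chinese cabbage were 61 of 47548 array features whose signal stood little or no higher at 15 min of cold than in the higher normal array and was raised in both varieties at 120 min. They were selected on the log2 intensity of 6 arrays, namely the 2 normal arrays, both 15 min arrays and both 120 min arrays. Each member lay at most 0.3 log2 units above the higher normal array in both 15 min arrays. Each lay at least 1.0 above it in both 120 min arrays, which is a doubling of signal, and rose by at least 1.0 between these times in each variety. The levels at normal, 15 and 120 min are therefore a description of the choice. The arrays of 30 and 60 min, 4 in all, took no part in it, and they show when the rise began and how far the varieties went together.

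Chinese cabbage (Brassica rapa subsp. pekinensis) is a leafy crop of the mustard family. Total RNA was labelled with Cy3 and hybridised to NimbleGen oligonucleotide arrays, which report a brightness per feature. The groups were the varieties Shin-Hong and Man-Su, each with 1 array at normal and 1 array at 15, 30, 60 and 120 min of cold stress. No group had a replicate. The sources used here do not say which tissue was taken, at what temperature and age, or whether plants were pooled.

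Cold acts on plant transcripts in waves. In Arabidopsis thaliana, a relative of Chinese cabbage, the CBF transcription factors (also called DREB1) are switched on soon after the cold begins. They then bind the promoters of COR genes, whose products protect membranes and proteins, so the COR genes rise later. Genes of such a second wave are a known part of the plant cold response, but which genes the 61 features report is not known here: no feature ID matched the gene table used (0 of 47548), and no pathway list could be read. Features are accordingly described by their values, and 2 of them by ID.

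The arrays differed in ways that touch the members. At the 207 features over 4-fold apart between every Shin-Hong and every Man-Su cold array, 0 kept that direction between the normal arrays, so the variety labels of the normal arrays are in doubt. Margins below are taken against the higher normal array, whichever label it carries, and do not depend on those labels. None of the 61 members was among the 207 (0 members). A pair of cold arrays also leaned towards the other variety over the bulk of features, those less than 1 log2 unit apart: the Shin-Hong array of 120 min by 53.2% of the gap and the Man-Su array of 30 min by 46.9%. For the other 6 cold arrays the lean was between -16.3% and -0.24%. The mean of 5 barcode controls was 8.90 log2 units in the Man-Su array of 30 min, against 7.82 to 8.27 in the other Man-Su cold arrays, and was 8.65 to 8.98 in the Shin-Hong cold arrays. Array medians were near equal, at 12.02 to 12.08 log2 units. The part of these array differences in the results below was not tested.

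The members were of moderate brightness before cold. The mean of the 2 normal arrays ran over the members between 7.43 and 13.06 log2 units with a median of 10.97, against a median of 12.01 over all features. All 61 stood above the random-sequence control of the array, a measure of background, at normal and at 15 min. All 61 were summarised over 7 probes, as were 98.4% of all features. The array labelled Man-Su normal was the higher normal array for 41 of the 61. The one labelled Shin-Hong normal was the higher for 20, or 32.8%, beside 51.0% of all features. The baseline of the members was thus more often the array labelled Man-Su normal than over all features.

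By the rule, both 120 min arrays stood at least 1.0 log2 units above the higher normal array, which held for 918 features, or 1.93% of those on the array. Of these 918, 72 were at most 0.3 above it in both 15 min arrays and 61 also rose by 1.0 within each variety. A larger set of 260 features was at least 1.0 above it in both 15 and both 120 min arrays, so more of the features raised at 120 min were already up at 15 min in both varieties than were late by the rule. The median member stood 1.63 log2 units above the higher normal array at 120 min in Shin-Hong and 1.49 in Man-Su. At 15 min the median was -0.40 in Shin-Hong and -0.20 in Man-Su, against -0.16 and -0.09 over all features. Above 0 were 11 members in Shin-Hong and 16 in Man-Su, all within the 0.3 allowed. At least 1.0 below the higher normal array were 11 in Shin-Hong and 5 in Man-Su, beside 4930 and 2912 of all 47548 features. In such members the rise from 15 to 120 min, whose shares are given below, includes a return to the normal level. The weakest member stood at 1.01 in its lower 120 min array, and the nearest feature outside, otherwise fitting, at 0.99. The highest 15 min margin of a member was 0.29, and the nearest feature outside had 0.32. The smallest rise from 15 to 120 min was 1.01 inside and 0.97 outside.

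At 60 min 43 of 61 members stood above the higher normal array in both varieties, against 20.9% of all features. At 30 min 19 did, a share of 31.1% that lay near the 26.3% of all features. At 30 min the median margin over the higher normal array was -0.09 log2 units in Shin-Hong and 0.30 in Man-Su. At 60 min it was 0.83 in Shin-Hong and 0.65 in Man-Su. Over all features the same medians lay at -0.15 for both varieties at 30 min, and at -0.16 for Shin-Hong and -0.10 for Man-Su at 60 min. The margin was above 0 at 60 min in 49 of 61 members in Shin-Hong and in 53 in Man-Su, against 37.8% and 41.7% of all features. At 30 min it was above 0 in 26 members in Shin-Hong, or 42.6% beside 38.8% of all features. In Man-Su it was above 0 in 46, or 75.4% beside 39.4%. In all 4 arrays of 30 and 60 min 19 members were above 0, with no share of all features taken. Read against the 15 min array instead, 42 of 61 members were higher at 30 min in both varieties, or 68.9% beside 25.5% of all features. In 18 the 30 min array was higher by at least 0.5 in both varieties, or 29.5% beside 0.429%. Part of the rise from 15 min thus came by 30 min. The rule capped the 15 min arrays, so these counts carry no test.

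**Figure D1:**
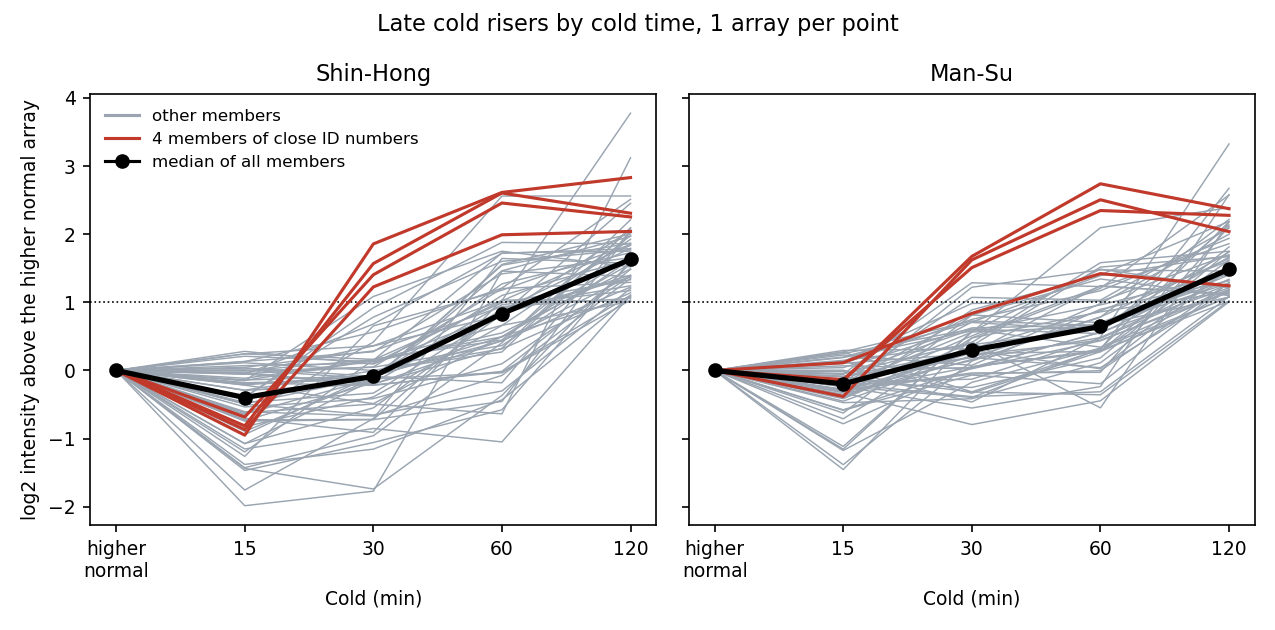
Log2 intensity above the higher normal array (vertical axis) at 15, 30, 60 and 120 min of cold in Shin-Hong (left) and Man-Su (right), a line for each of the 61 members and 1 array per point. The black line is the median, which reaches 0.83 in Shin-Hong and 0.65 in Man-Su at 60 min; red lines are 4 members of close ID numbers, and the dotted line marks the 1.0 of the rule.

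Counted by the doubling that the rule asked of 120 min, few members got there early. Both 30 min arrays were at least 1.0 log2 units above the higher normal array in 4 of 61 members, and so were 1.51% of all features. Both 60 min arrays were past that margin in 13 of 61 members, against 0.82% of all features. These margins share the normal arrays with the rule, so they carry no test. Against the mean of the normal arrays the counts were 8 at 30 min and 20 at 60 min. Against the lower normal array they were 13 and 30. A lower baseline raises the margin of every feature, and the share of all features was not taken for these baselines. With the 4 members of close ID numbers left out, 1 of 57 was past 1.0 at 30 min and 9 of 57 at 60 min. In Shin-Hong alone, without the Man-Su 30 min array, 5 members were past it at 30 min. A rule without the Shin-Hong 120 min array picked 135 features, of which 4 were past it at 30 min and 13 at 60 min in both varieties.

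The first time at which a member stood 1.0 above the higher normal array was the same in both varieties for 42 of the 61. For 31 of these it was 120 min, for 7 it was 60 min and for 4 it was 30 min. The rule put every member past 1.0 at 120 min in both varieties. Members not past it earlier therefore share that time by the choice. Of the other 19, Shin-Hong was earlier in 12 and Man-Su in 7. With a limit of 0.5 in place of 1.0 the order turned: the time was the same for 29, earlier in Shin-Hong for 11 and earlier in Man-Su for 21. The 2 limits thus order the varieties differently, and no order is read from either.

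**Figure D2:**
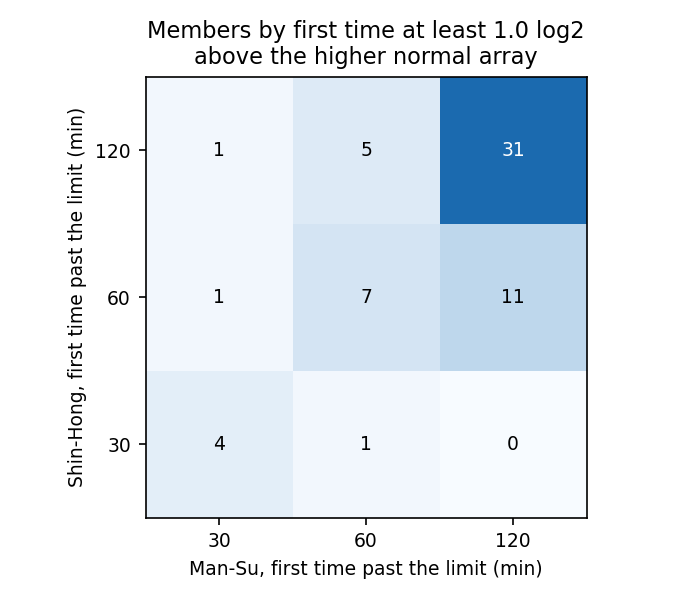
Number of members by the first cold time (min) at which the array stood at least 1.0 log2 units above the higher normal array, Man-Su across and Shin-Hong upwards. The darkest square holds the 31 members that reached it only at 120 min in both varieties, and the squares from lower left to upper right sum to 42 of 61.

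In the 31 members that passed the limit only at 120 min in both varieties, the largest step was mostly that from 60 to 120 min, in 22 in Shin-Hong and 26 in Man-Su. Part of the rise came earlier: a median of 31.7% was reached by 60 min in Shin-Hong and 29.7% in Man-Su, and at least 50% in 9 members in Shin-Hong and 10 in Man-Su. Their median margin was -0.18 in Shin-Hong and 0.05 in Man-Su at 30 min. At 60 min it was 0.43 in Shin-Hong and 0.32 in Man-Su, and at 120 min 1.39 and 1.44. The 120 min array exceeded that of 60 min by a median of 1.13 log2 units in Shin-Hong and 1.07 in Man-Su. It did so in 31 of 31 in each, which follows from the choice. These members lay under 1.0 at 60 min, and the rule put them at 1.0 or more at 120 min. The grouping also favours a largest step from 60 to 120 min, so these counts carry no test.

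Brapa_ESTC004179 had the largest margin at 120 min and was of this late kind in Man-Su. It read 7.25 and 7.61 log2 units in Shin-Hong normal and Man-Su normal, as labelled. In Shin-Hong it read 7.85, 7.97, 8.63 and 11.38 at 15, 30, 60 and 120 min, and in Man-Su 7.61, 7.14, 8.10 and 10.93. Every array but the 2 of 120 min lay below 9 log2 units, and the groups of 60 and 120 min did not overlap. The member was picked for its 120 min arrays, so their height describes the choice. The arrays of 30 and 60 min took no part in it. The signal at 120 min was 13.7-fold that of the higher normal array in Shin-Hong and 10.0-fold in Man-Su. By 60 min 22.1% of the rise from 15 to 120 min had taken place in Shin-Hong and 14.6% in Man-Su. From 30 to 60 min it stood higher by 0.81 ± 0.20 log2 units (SE, limma on the 4 arrays, adjusted p = 0.989), a difference that was not called.

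The member with the second largest margin at 120 min was sharper still. It read 9.68 and 9.01 log2 units in Shin-Hong normal and Man-Su normal, as labelled. In Shin-Hong it read 9.06, 9.19, 9.04 and 12.80 over the 4 cold times, and in Man-Su 9.95, 9.37, 9.99 and 12.35. No array before 120 min exceeded 10 log2 units. By 60 min -0.49% of the rise had taken place in Shin-Hong and 1.62% in Man-Su. The member ranked ninth by the margin at 120 min was alike, with 8.65, 8.53, 8.43 and 10.67 in Shin-Hong and 8.21, 9.03, 8.07 and 10.79 in Man-Su.

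At the other end stood 13 members that had passed 1.0 in both varieties by 60 min. Their median margin in Shin-Hong was 0.68 at 30 min, 1.75 at 60 min and 1.97 at 120 min. In Man-Su it was 0.89, 1.48 and 1.70. The second hour added little: the median change from 60 to 120 min was 0.00 log2 units in Shin-Hong and -0.02 in Man-Su, with 7 of 13 higher at 120 min in Shin-Hong and 6 of 13 in Man-Su.

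Among these 13 were 4 members whose ID numbers lay within 9 of each other. The array held 7 features with IDs in that span, and the other 3 were not members and did not stand 1.0 above the higher normal array at 120 min in both varieties. Over the 10 arrays the profiles of the 4 correlated pairwise at 0.949 to 0.995, a description of 4 features that were chosen by part of the same arrays. Whether they share sequence, and so measure the same transcripts, was not tested, since no probe sequence was used here.

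Of these 4, the member with the largest margin at both 30 and 60 min read 12.04 and 11.96 log2 units in Shin-Hong normal and Man-Su normal, as labelled. In Shin-Hong it read 11.09, 13.89, 14.65 and 14.87 at 15, 30, 60 and 120 min, and in Man-Su 11.88, 13.71, 14.77 and 14.41. Both 30 min arrays lay above every normal and 15 min array, which follows from the pick by the 30 min margin. The arrays of 60 and 120 min lay close together. By 30 min 74.2% of its rise had taken place in Shin-Hong and 72.3% in Man-Su. Over all 4 members that share was 71.1% to 76.3% in Shin-Hong and 64.1% to 82.8% in Man-Su. The other 57 members had a median of 7.35% in Shin-Hong and 30.3% in Man-Su. From 60 to 120 min the Man-Su array of each of the 4 was lower at 120 min, at 13.50, 14.32, 14.33 and 14.41 log2 units, against 13.68, 14.39, 14.79 and 14.77 at 60 min.

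**Figure D3:**
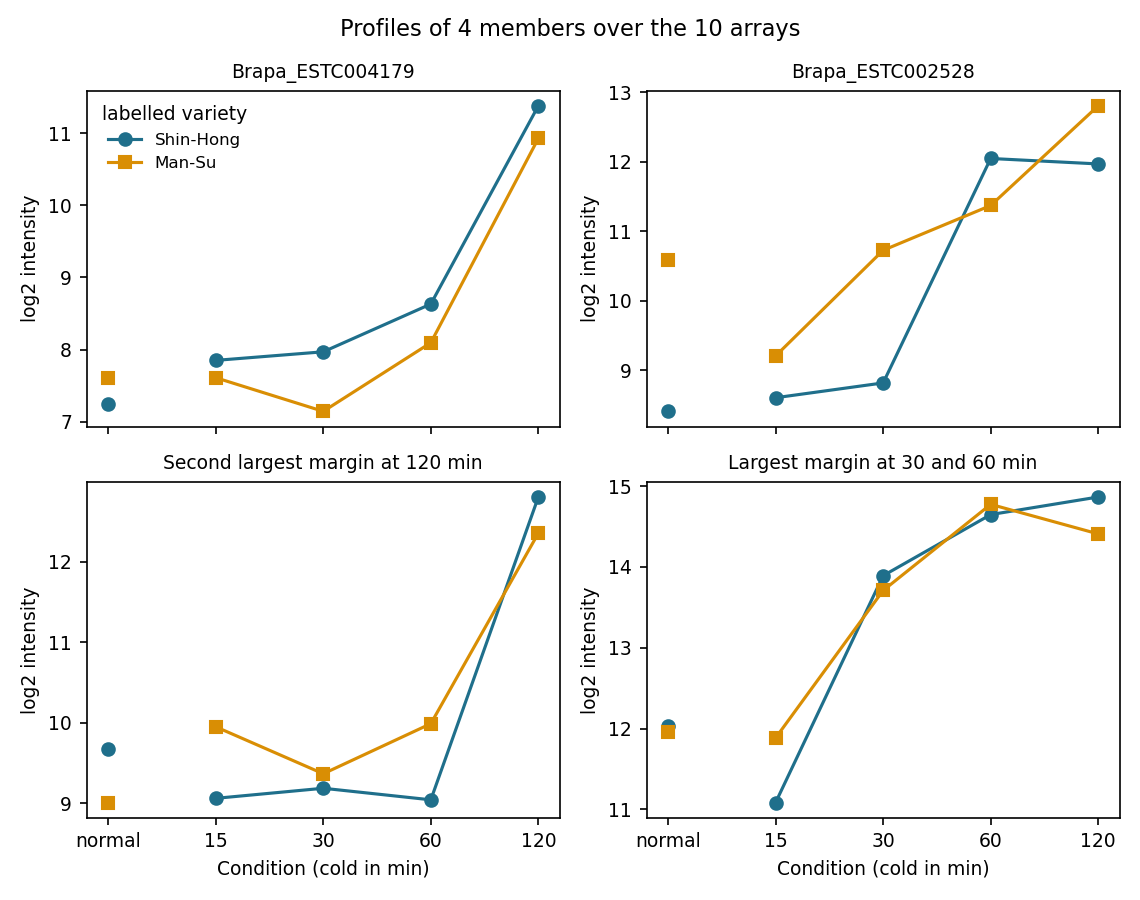
Log2 intensity (vertical axis) of 4 members at normal and at 15, 30, 60 and 120 min of cold, with circles for arrays labelled Shin-Hong, squares for arrays labelled Man-Su and 1 array per point. Brapa_ESTC004179 and the member of the second largest 120 min margin rise in the second hour, Brapa_ESTC002528 rises between 30 and 60 min in Shin-Hong, and the member of the largest margin at 30 and 60 min is at 13.89 and 13.71 by 30 min.

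Between these kinds lay 11 members past 1.0 by 60 min in Shin-Hong alone and 6 in Man-Su alone. The 11 had a median margin at 60 min of 1.27 in Shin-Hong and 0.56 in Man-Su. The 6 had 0.61 in Shin-Hong and 1.22 in Man-Su. At 120 min the medians were 1.75 in Shin-Hong and 1.40 in Man-Su for the 11, and 2.07 in Shin-Hong and 1.84 in Man-Su for the 6. These groups, like the 31 and the 13 members above, were formed on the arrays they describe and carry no test.

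The change from 30 to 60 min rests on arrays that the rule did not use, and nearly all members read higher at 60 min on average. The mean change of the varieties was above 0 in 60 of 61 members, the exception being the ninth by margin at 120 min at -0.53, with a median of 0.58 log2 units, against 0.01 over all features. In 47 of 61 the 60 min array was the higher in both varieties, a share of 77%, and 23.6% of all features did the same. In 20 of 61 it was higher by at least 0.5 in both varieties, against 0.509% of all features. The members had been chosen for a rise between 15 and 120 min, the span that holds both times.

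With limma on these 4 arrays, in which the 2 varieties stand for the samples of a time and leave 1 residual degree of freedom, 0 members and 0% of all features were called higher at 60 min at an adjusted p under 0.05. At an unadjusted p under 0.05, 27 of 61 members and 1.66% of all features were higher, and 0 members were lower. A limma fit that lets the error follow brightness called 12 members among 75 features, 0.158% of all, at adjusted p of 8.55e-06 to 0.0359, with changes of 0.67 to 1.94 log2 units. All 4 members of close ID numbers were among the 12. That fit gave its prior 62.9 degrees of freedom, against 3.92 in the plain fit, so the calls lean on features of like brightness more than on the member's own arrays.

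Brapa_ESTC002528 had the largest mean change from 30 to 60 min. It read 8.41 and 10.59 log2 units in Shin-Hong normal and Man-Su normal, as labelled. In Shin-Hong it read 8.60, 8.82, 12.05 and 11.97 over the 4 cold times, and in Man-Su 9.21, 10.73, 11.37 and 12.81. Nearly the whole rise of Shin-Hong fell between 30 and 60 min, while Man-Su read higher at every step. The Shin-Hong margin over the higher normal array was -1.77 at 30 min and 1.46 at 60 min. The mean change was 1.94 ± 0.61 log2 units (SE, limma on the 4 arrays, adjusted p = 0.989), made of 3.23 in Shin-Hong and 0.64 in Man-Su. It was called with the brightness-dependent error (limma adjusted p = 0.000587).

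**Figure D4:**
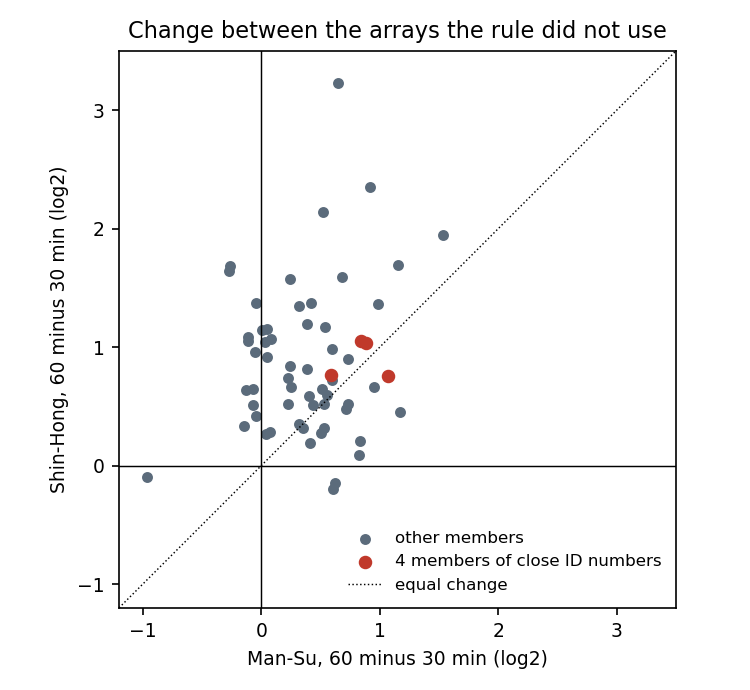
Change from 30 to 60 min of cold (log2) of each of the 61 members in Man-Su (horizontal axis) and Shin-Hong (vertical axis). Of the 61 points, 47 lie above 0 in both varieties, and the cloud is tall rather than slanted (Pearson r 0.167).

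The varieties took the step between 30 and 60 min to different extents. The median change was 0.76 log2 units in Shin-Hong and 0.41 in Man-Su, and 23 members were higher by at least 1.0 in Shin-Hong, of which 2 also were in Man-Su. Another 2 were so in Man-Su alone. Over all features 0.667% were higher by that much in Shin-Hong, 3.82% in Man-Su and 0.0358% in both, so the array as a whole had more such changes in Man-Su. Across the 61 members the changes of the varieties correlated at r = 0.167 (Spearman 0.040), against r = -0.035 over all 47548 features. Their margins over the higher normal array correlated at r = 0.597 at 60 min, against 0.283 over all features. At 30 min the margins correlated at r = 0.493, against 0.550 over all features. The margins of both varieties share that normal array, which enters their correlation. These are descriptions across features that share 4 arrays. The step from 15 to 30 min was the reverse, with medians of 0.21 in Shin-Hong and 0.52 in Man-Su, and that from 60 to 120 min was alike at 0.79 and 0.78.

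Read by interval, the largest step of a member fell at 15 to 30 min in 9 members in Shin-Hong and 20 in Man-Su. It fell at 30 to 60 min in 23 in Shin-Hong and 5 in Man-Su, and at 60 to 120 min in 29 in Shin-Hong and 36 in Man-Su. No share of all features was taken for these counts, and each interval is longer than the one before. Over all features the median size of the 3 steps, in order of time, was 0.12, 0.19 and 0.34 log2 units in Shin-Hong. In Man-Su it was 0.19, 0.21 and 0.18. The interval was the same in both varieties for 35 of 61, of which 24 had it at 60 to 120 min, 9 at 15 to 30 min and 2 at 30 to 60 min. The early step of Man-Su ends at, and its small middle step starts from, 1 array, that of 30 min. This array lay towards Shin-Hong over the bulk of features and had high barcode controls. The members' median margin at 30 min was 0.30 in Man-Su and -0.09 in Shin-Hong. The part of the array in these steps was not tested. With 1 array per variety and time, a difference in timing between the varieties has no test.

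**Figure D5:**
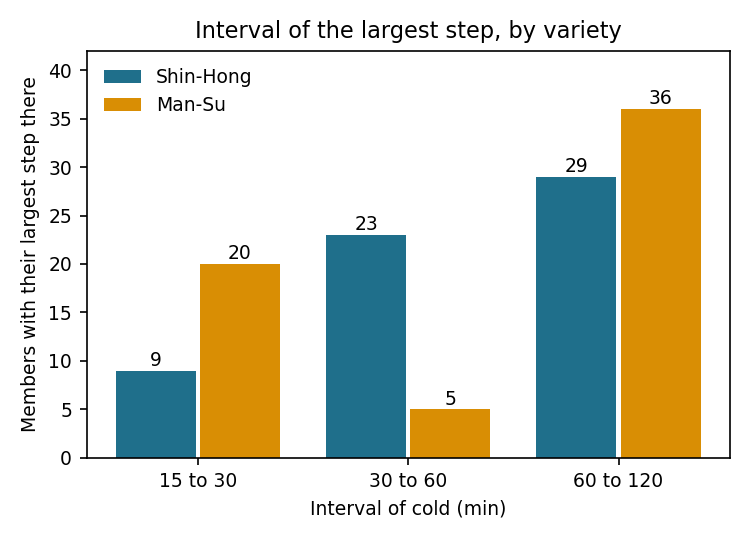
Number of the 61 members (vertical axis) whose largest step between neighbouring cold times fell in each interval, with Shin-Hong left and Man-Su right in each pair of bars. The middle interval holds 23 members in Shin-Hong and 5 in Man-Su, and the last holds 29 and 36. The intervals lengthen from left to right, and no share of all features was taken.

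By 60 min a median of 54.0% of the rise from 15 to 120 min had taken place in Shin-Hong and 55.5% in Man-Su. By 30 min the medians were 9.35% in Shin-Hong and 32.0% in Man-Su. In 26 members at least 50% of the rise had been reached by 60 min in both varieties and in 20 in neither. In 8 it had been reached in Shin-Hong alone and in 7 in Man-Su alone.

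The member furthest ahead in Shin-Hong had 83.7% of its rise by 60 min there and 6.91% in Man-Su. Its values were 11.10, 11.10, 12.74 and 13.06 log2 units over the 4 cold times in Shin-Hong, and 11.74, 12.12, 11.85 and 13.31 in Man-Su. The member furthest ahead in Man-Su had -4.31% in Shin-Hong and 61.6% in Man-Su, with 13.21, 13.08, 13.16 and 14.23 in Shin-Hong and 13.43, 13.27, 14.10 and 14.51 in Man-Su. In both, the varieties were within 0.3 of each other at 120 min while the 60 min arrays stood apart.

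The levels of the varieties were set side by side at 30, 60 and 120 min. The difference Shin-Hong minus Man-Su had a median size of 0.46 log2 units at 30 min, 0.57 at 60 min and 0.35 at 120 min. Its signed median was -0.36 at 30 min, 0.16 at 60 min and 0.22 at 120 min. The varieties were within 0.5 of each other in 33 members at 30 min, 27 at 60 min and 46 at 120 min. Over all features the median size was 0.31, 0.42 and 0.29 at these times. The rule asked both 120 min arrays to be high, and the Shin-Hong array of 120 min leaned towards Man-Su, so the smaller difference at 120 min is a description only.

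A limma fit of the varieties over the 4 arrays of 30 and 60 min called 2 members lower in Shin-Hong at an adjusted p under 0.05, beside 1.56% of all features. It called 0 members higher in Shin-Hong, beside 2.14% of all features. At an unadjusted p under 0.05, 11 members were lower and 6 higher in Shin-Hong, shares of 18% and 9.84% beside 13.4% and 14% of all features. So few calls among 61 members give no reading of the members as a set. The 2 called members were singled out by this call. The wider one differed by -2.01 ± 0.28 log2 units (SE, limma adjusted p = 0.0398) and read 10.33 and 11.70 in Shin-Hong at 30 and 60 min, against 12.82 and 13.24 in Man-Su. The other differed by -1.27 ± 0.21 (SE, limma adjusted p = 0.0494), with 9.07 and 11.01 in Shin-Hong against 10.54 and 12.07 in Man-Su. In both, neither Shin-Hong array reached the Man-Su array of its time. At 120 min the first read 13.65 in Shin-Hong and 14.01 in Man-Su, and the second 10.99 and 12.37. With all 8 cold arrays, which include those of the rule, 6 members were lower and 5 higher in Shin-Hong, or 9.84% and 8.2%, near the 11.5% and 10.8% of all features. In that fit 0 members were called with either array of 60 min left out, beside 769 features lower and 912 higher in Shin-Hong. With either array of 30 min left out, 6 members were lower and 3 higher, beside 7055 features lower and 4496 higher. Leaving out either array of a time gives the same fit of the varieties, since the time term takes up the array that remains. Each such result is therefore a check without that time, not without a single array.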

How the data were processed

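The authors deposited 1 linear intensity for each feature and array, summarised by RMA (robust multi-array averaging) per the submitters' processing notes. The sources used here do not give the software, its version or the arrays it was run on together. The number of probes per feature, another value deposited by the authors, is per the file headers. The authors' series-wide table held the same intensities to within 0.005. Intensities were taken to log2 with Python 3.11.15; 6 control features were left out, and no filter or further normalization was applied, since the rule is stated on these values. Across all 47548 features, limma 3.58.1 in R 4.3.3 (lmFit, eBayes) was fitted to the 4 arrays of 30 and 60 min with time and variety as terms, with calls made where the p adjusted by Benjamini-Hochberg was under 0.05. It was checked on simulated data whose changes were larger than the mean change of any member from 30 to 60 min. The check does not show whether changes of the members' size would be called. The p-values treat the 2 varieties as samples and may measure partly technical spread; the number of arrays limits the precision. The members, limits and tests were chosen with earlier results of these data known. By rule, 2 IDs are printed, those of the largest 120 min margin and the largest change from 30 to 60 min; other members were picked by rank or extremes. Alternatives were quantile normalization, a floor at the random-sequence control, other limits and baselines, other fits, and leaving out each array.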

Additional observations from a re-analysis of the deposited data

Results flagged for a closer look

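In 4 of the described members the 2 varieties moved opposite ways between 30 and 60 min of cold, on 1 array each, and the difference was not tested. The member of the second largest margin at 120 min changed by -0.14 log2 units in Shin-Hong and 0.62 in Man-Su. The member ranked seventh by that margin changed by 1.37 in Shin-Hong and -0.041 in Man-Su. The member of the lowest margin at 60 min, which read 8.65, 8.95, 8.75 and 10.90 log2 units over the 4 cold times in Shin-Hong and 9.93, 9.46, 10.07 and 11.42 in Man-Su, changed by -0.20 and 0.61. The member furthest ahead in Shin-Hong by 60 min changed by 1.64 in Shin-Hong and -0.27 in Man-Su. Over all 61 members 13 had opposite signs, 11 of them higher at 60 min in Shin-Hong, a share of 21.3% against 50.4% of all features.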

How the results depend on the processing

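Nothing pairs samples by replicate, because each group holds 1 array and the labels number no replicates. The limma fits of 60 against 30 min held variety as a term, and so compared the times within each variety. In the fit of 4 arrays the 1 residual degree of freedom is the difference between the varieties in that change. Quantile normalization picked 63 features, 53 of them shared with the 61, and the floor left all 61. Rises of at least 1.5 left 21 members, and a 15 min limit of 0.0 left 37. Leaving out an array of the rule gave 52 to 176 features, the lowest without Man-Su normal, which kept 33 of the 61, and the others being 55 (Shin-Hong normal), 135 (Shin-Hong 120 min), 136 (Shin-Hong 15 min), 159 (Man-Su 120 min) and 176 (Man-Su 15 min). The 13 members past 1.0 at 60 min became 28 with a limit of 0.5, 20 against the mean and 30 against the lower of the normal arrays; the 4 at 30 min became 8, 8 and 13, and 1 without the members of close ID numbers, a setting chosen after seeing the data, as were those without Shin-Hong cold 120 min (13 and 4) and Man-Su cold 30 min (5). For 60 against 30 min, the brightness-dependent error called 98 features and 12 members; every other fit called 0, including those of the 8 cold arrays that leave out an array of 30 or 60 min (0 to 0). In those fits the members' median change was 0.46 to 0.75. With an array left out, that change also draws on the 15 and 120 min arrays through the variety term. It is then no longer free of the arrays of the rule. For Shin-Hong against Man-Su, 1759 features were called, and 3673 after quantile normalization. Of the 3673, 1609 were lower in Shin-Hong, with 5 members, and 2064 higher, with 0 members. Over 8 cold arrays 10612 were called, 5470 lower with 6 members and 5142 higher with 5 members. These include the arrays of the rule, so the member counts are not read. Leaving out an array of 30 or 60 min from the 8 gave 1681 to 11551 features, 0 to 6 members lower and 0 to 3 higher. With 0 members called was the fit without Shin-Hong or Man-Su cold 60 min. Either array of a time left out gave the same values for the varieties, since that whole time then leaves the comparison. For the mean and the lower of the normal arrays no share of all features was taken. Causes were not tested.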
